A study of Mus musculus with 6 samples.

Results

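The histone acetyltransferase genes described here are Ep300, Crebbp, Kat2a, Kat2b, Kat5, Kat6a, Kat6b, Kat7 and Kat8, 9 of 21738 protein-coding genes placed on the GENCODE M39 annotation of the mouse genome (GRCm39). What was measured is open chromatin in mouse kidney by ATAC-seq, in which a transposase cuts and tags DNA that is not packed by nucleosomes. An accessible interval was counted for a gene when it overlapped the stretch from 3 kb upstream of the gene start to the gene end, read along the gene's own strand. By this rule the 9 genes took 179 of the 279569 intervals in the deposited list. Nuclei came from kidney, dissected as cortex, of 3 wild-type (WT) and 3 tubule-specific Acly knockout (Acly cKO) libraries, each labelled with the treatment Control. The knockout line carries Acly fl/fl and the Ksp-Cre (Cdh16-Cre) transgene, which recombines in the epithelium of proximal tubules, distal tubules and collecting ducts, and its littermate controls are Acly fl/fl mice without Cre. The libraries therefore mix tubule cells, in which Acly can be deleted, with endothelium, stroma and immune cells, which lie outside the reach stated for this Cre. Mice entered the injury experiments at 6 to 8 weeks of age, but the sources used here do not tie an age to these libraries. WT libraries carry the batch labels 1 and 2 and Acly cKO libraries 4 and 5, so genotype and batch cannot be told apart. The authors' ATAC-seq set also held WT libraries deposited earlier, and whether these entered the list is not given in the sources used here. The list is 1 peak call over pooled libraries. Each value below is thus a single number with no replicate error, no value belongs to a genotype, and no test was possible. The background share over all protein-coding genes is given in its place.

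Histone acetyltransferases move the acetyl group of acetyl-CoA onto lysines of histone tails, which loosens the grip of the tails on DNA and makes docking sites for bromodomain proteins. ACLY cleaves citrate in the cytosol and nucleus and is a main source of that acetyl-CoA. The p300 and CBP pair acetylates H3K27 at enhancers and promoters, GCN5 and PCAF work in the SAGA and ATAC coactivator complexes, and the MYST family (TIP60, MOZ, MORF, HBO1 and MOF) works in complexes of its own that mark histones H3 and H4.

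All 9 genes had an accessible interval within 1 kb of the start of their canonical transcript, against 75.8% of all protein-coding genes. In all 9 the promoter interval also reached a fold enrichment of 5 or more, against 66.2% of all genes. Fold enrichment is the pileup of reads at the highest summit divided by the background that the peak caller expected there. Among the 9 promoters it ran from 19.7 at Kat2a to 95.1 at Kat6b with a median of 37.6, and the median over the 16482 promoters that have an interval was 30.1 (quartiles 12.4 and 48.3). Kat2a and Kat5 lay below that median and the other 7 above it. The peak caller's second measure, the -log10 q, ranked the intervals of these genes in the same order as the fold enrichment, so mostly the fold enrichment is given here.

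**Figure D1:**
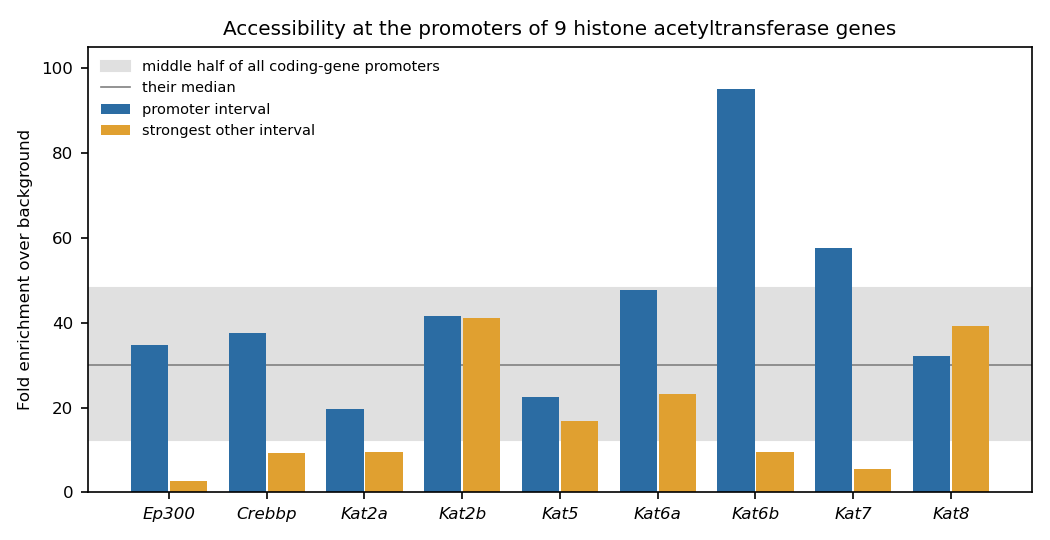
Bars give the fold enrichment (y axis, linear from 0) of the promoter interval and of the strongest other interval of each gene (x axis) in the pooled call, single values without error, over the quartile range of all coding-gene promoters (grey band, 12.4 to 48.3) and their median (line, 30.1). Kat6b (95.1) and Kat7 (57.5) stand above the band, and Kat2b and Kat8 have another interval about as high as the promoter or higher.

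Sequence under the highest promoter summit is shown for 5 genes. In these members the 100 bases on either side of the summit hold no exon of any transcript of the gene itself. They show how unlike the base composition and the matched letters were between these promoters, including the paralogs Kat6a and Kat6b. Sequences are from GRCm39, written 5′ to 3′ along the gene's strand. Capitals mark letters of 12 searched motifs in either orientation, here the GC box bound by Sp and KLF factors (GGGCGG or CCGCCC), the CCAAT box bound by NF-Y (GATTGG on this strand), an E-box (CACGTG) and HNF1 letters (GTTAAT).
Ep300, chr15:81469284-81469484, plus strand: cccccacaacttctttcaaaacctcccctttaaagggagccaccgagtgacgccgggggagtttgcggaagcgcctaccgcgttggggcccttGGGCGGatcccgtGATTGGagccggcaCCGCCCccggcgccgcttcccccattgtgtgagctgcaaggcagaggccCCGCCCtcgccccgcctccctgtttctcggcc
Crebbp, chr16:4031979-4032179, minus strand: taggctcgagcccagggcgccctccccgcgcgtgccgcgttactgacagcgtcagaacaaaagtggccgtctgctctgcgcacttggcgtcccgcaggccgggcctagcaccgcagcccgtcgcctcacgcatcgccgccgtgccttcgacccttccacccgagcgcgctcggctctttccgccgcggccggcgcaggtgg
Kat6a, chr8:23349316-23349516, plus strand: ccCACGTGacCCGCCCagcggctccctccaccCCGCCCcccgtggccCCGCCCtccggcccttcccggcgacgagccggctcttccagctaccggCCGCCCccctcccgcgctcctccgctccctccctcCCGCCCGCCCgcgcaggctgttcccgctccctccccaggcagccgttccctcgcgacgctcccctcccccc
Kat6b, chr14:21550624-21550824, plus strand: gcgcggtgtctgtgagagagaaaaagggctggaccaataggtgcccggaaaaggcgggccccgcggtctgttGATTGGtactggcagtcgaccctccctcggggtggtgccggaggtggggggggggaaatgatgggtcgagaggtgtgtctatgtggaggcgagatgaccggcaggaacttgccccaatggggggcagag
Kat7, chr11:95200449-95200649, minus strand: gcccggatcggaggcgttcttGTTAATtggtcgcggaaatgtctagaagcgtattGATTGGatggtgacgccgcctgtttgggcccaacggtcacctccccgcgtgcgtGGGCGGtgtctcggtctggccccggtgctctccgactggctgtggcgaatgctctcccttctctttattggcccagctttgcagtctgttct

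The Ep300 window held 3 GC boxes around 1 CCAAT box. The Kat6a window, with 80.6% G and C, held 6 GC boxes, of which a pair overlap, and an E-box 227 bp upstream of the start. The Kat6b window at the strongest promoter of the set held no GC box and a single match to CCAATC, at 225 bp upstream. The shorter letters CCAAT, which were not searched, also occur elsewhere in the Kat6b and Kat7 windows. Crebbp, with 30 CpG dinucleotides in its window, matched none of the searched letters. The Kat7 window lies in intron 1 and paired a CCAAT box with a GC box and the HNF1 letters.

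Ep300 encodes p300 and lies at chr15:81469540-81537206 on the plus strand, with 31 exons in its canonical transcript (ENSMUSG00000055024.14). Its accessibility was confined in this list to 5 intervals, fewer than in most genes of its length. The promoter interval, chr15:81467801-81471277, reached 34.8, higher than in 57.1% of all promoters, with the highest summit 156 bp upstream of the start. Further summits lay 69 bp downstream at 31.9 and 782 bp downstream at 22.8. None of the other intervals reached 5. The strongest of them was in intron 2 at 2.75, and 1 lay upstream at 2.55. Coding exon 31, the last exon, held the remaining intervals, at 1.90 and 2.29. Intron 1, at 14.2 kb the longest of the gene, held the highest summit of 0 intervals, although the promoter interval reached 1737 bp downstream and so into its first bases. From 21.6 kb to 64.0 kb downstream of the start, 62.6% of the gene, the list held no interval, and 3 internal starts of shorter coding transcripts lie in that stretch. Among 1773 genes of like length (between 0.8 and 1.25 times that of Ep300) the median was 12 intervals, 19.8% had fewer than Ep300, and 77.3% had an interval of 5 or more outside the promoter.

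Crebbp encodes CBP, the paralog of p300, and lies at chr16:3899192-4031861 on the minus strand, also with 31 exons (ENSMUSG00000022521.11). In contrast to Ep300 it held 44 intervals, and 82.0% of 1077 genes of like length held fewer (median 20). Per 10 kb this is 3.24 intervals for Crebbp and 0.708 for Ep300, beside a median of 1.85 over all genes. Many of the Crebbp intervals were weak, and at a q under 1e-05 the counts were 12 for Crebbp and 3 for Ep300, beside 22 for Kat6a, 20 for Kat6b and 17 for Kat2b. The promoters of the paralogs were close, 37.6 at Crebbp with its highest summit 218 bp upstream against 34.8 at Ep300. No error can be put on that difference. Intron 1 of Crebbp, 33.0 kb long, held 20 intervals. Of the 43 intervals outside the promoter, 4 reached 5. These were 5.37 at 3.47 kb and 5.63 at 14.2 kb in intron 1, 9.23 at 53.3 kb in intron 2, and 5.30 at 75.2 kb in coding exon 4. The highest of them, chr16:3978073-3979224, was still lower than the promoter by a factor of 4.07. Starts of 4 internal coding transcripts, from 85376 to 119353 bp downstream, had no interval within 100 bp, as was the case for those of Ep300.

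**Figure D2:**
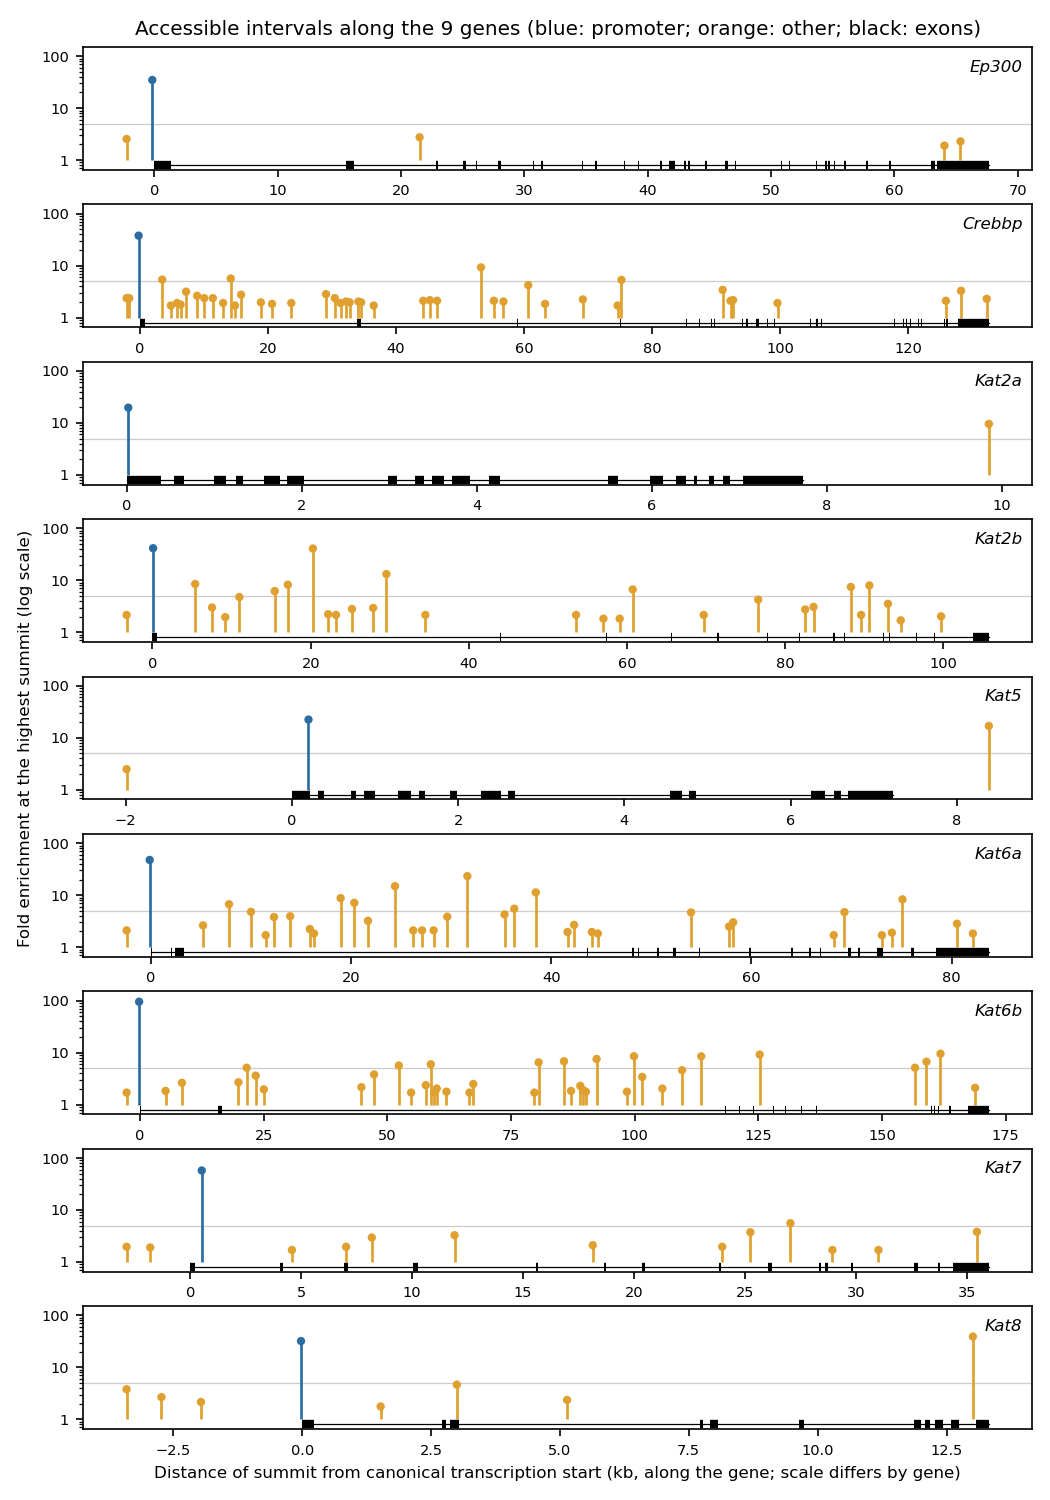
Each panel shows 1 gene, with the distance of each interval's highest summit from the canonical start on the x axis (kb, a scale of its own per gene) and its fold enrichment on a log y axis, with exons in black, a grey line at 5, the promoter interval in blue and the others in orange. Ep300 has 5 intervals while Crebbp, Kat6a and Kat6b have 44, 36 and 38, and the orange points past the right end of Kat2a and Kat5 are summits beyond the gene.

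Kat2a encodes GCN5, the catalytic subunit of SAGA and ATAC, and lies at chr11:100595572-100603310 on the minus strand with 18 exons (ENSMUSG00000020918.16). Its promoter had the lowest fold enrichment of the 9, 19.7 with the highest summit 19 bp downstream of the start in the 5′ UTR, lower than in most promoters (34.5% were lower). The interval around it was by contrast wide, 8518 bp, wider than 92.6% of promoter intervals, and held 26 summits. It also contained the start of the neighbouring gene Hspb9, 1376 bp away on the other strand, where the best summit within 500 bp reached 7.27. The only other Kat2a interval, chr11:100591999-100597895, took its 9.56 from a summit 2125 bp past the end of Kat2a and contained the start of Dhx58, an RNA sensor gene. The start of the noncoding RNA Gm72653 lies in it too. Inside the Kat2a window that interval reached 3.73. Both intervals together covered 92.3% of the window.

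Kat2b encodes PCAF, the paralog of GCN5, and lies at chr17:53873889-53979749 on the plus strand with 18 exons (ENSMUSG00000000708.16). Its promoter reached 41.5 at 78 bp downstream of the start, more than at Kat2a, and carried a broad run of summits, with 33.3 at 382 bp, 22.5 at 1040 bp and 32.2 at 1420 bp downstream. Kat2b is much longer than Kat2a (105861 against 7739 bp), and genes of like length held a median of 17 and 2 intervals. Per 10 kb, Kat2b held 2.66 intervals and Kat2a 1.86. Unlike Kat2a, Kat2b held 29 intervals, of which 8 outside the promoter reached 5 (like-length median 3). Of these 8, 5 lay in intron 1, which spans 43.3 kb. The strongest, chr17:53892884-53895795, reached 41.0 (-log10 q 761) at 20.3 kb, beside 41.5 (-log10 q 774) at the promoter. It lies inside intron 1, no canonical start of a coding gene lies within 1 kb of its summit, and its fold enrichment was above that of 98.0% of all intervals in the list.

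The neighbour upstream in that intron, at 17.1 kb, reached 8.25 and held the start of the noncoding RNA Gm65819 and, at 17155 bp, that of a shorter Kat2b coding transcript. At 29.6 kb another intron 1 interval reached 13.2. The remaining ones were 8.51 at 5.40 kb and 6.22 at 15.5 kb in intron 1, 6.68 at 60.7 kb in intron 3, and 7.46 and 7.99 in intron 11. The sequence under the summits at 20.3 kb and 29.6 kb is printed because these were the strongest intervals inside the gene. Capitals mark an AP-1 site (TGANTCA) in the first and a CRE, the palindrome bound by CREB and ATF factors (TGACGTCA), in the second.
Kat2b intron 1 at 20.3 kb, chr17:53894179-53894379, plus strand: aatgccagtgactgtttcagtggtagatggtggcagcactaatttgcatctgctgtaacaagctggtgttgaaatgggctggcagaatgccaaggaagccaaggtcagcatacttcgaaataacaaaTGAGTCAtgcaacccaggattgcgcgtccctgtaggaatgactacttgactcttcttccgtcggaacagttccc
Kat2b intron 1 at 29.6 kb, chr17:53903471-53903671, plus strand: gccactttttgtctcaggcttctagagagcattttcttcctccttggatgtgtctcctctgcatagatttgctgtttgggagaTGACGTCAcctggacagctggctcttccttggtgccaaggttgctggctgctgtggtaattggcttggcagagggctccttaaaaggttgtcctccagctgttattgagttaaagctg

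Apart from these letters the pair matched none of the 12 motifs. The full CRE palindrome was rare, at 0.443% of the 55557 summit windows of fold enrichment 5 or more away from canonical coding starts, and the Kat2b window was the only one of 33 such member windows to hold it.

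**Figure D3:**
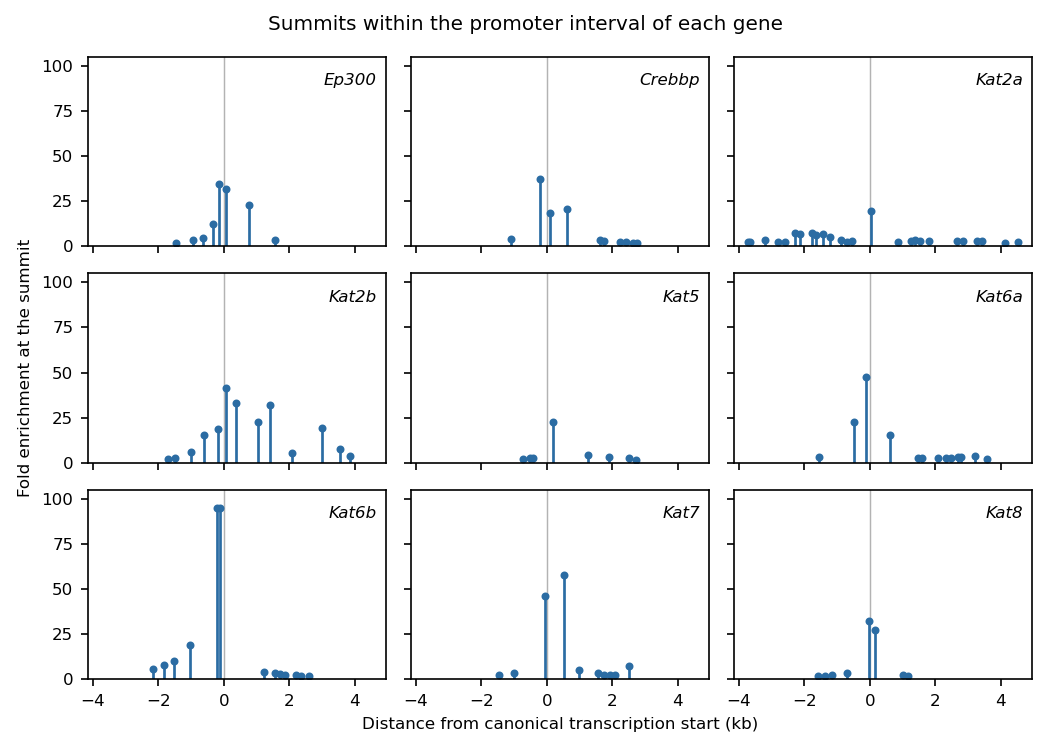
Panels show, for each gene, all summits inside the promoter interval, by distance from the canonical transcription start (x axis, kb) and fold enrichment (y axis, linear). Kat6b has its pair of summits at 95.1 and 94.9 just upstream of the start, Kat2a has 1 tall summit and many low ones, and Kat7 is highest 523 bp downstream.

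Kat5 encodes TIP60, the acetyltransferase of the NuA4 complex that acts in transcription and DNA repair, and lies at chr19:5653038-5660271 on the minus strand with 14 exons (ENSMUSG00000024926.12). Its promoter reached 22.4, with the highest summit 200 bp downstream of the canonical start in the 5′ UTR, and was higher than 38.3% of promoters. That summit falls among several alternative starts at 179 to 208 bp. An interval at the other end of the gene, chr19:5651244-5656930, reached 16.9, but its summit lies 13 bp from the start of Rnaseh2c, which encodes a subunit of ribonuclease H2. Inside the Kat5 window it reached 3.14. The interval also contained another annotated start of a Kat5 coding transcript, 6271 bp downstream of the canonical start. The third interval, 1988 bp upstream, was at 2.49.

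Kat6a encodes MOZ, which with BRPF proteins acetylates histone H3 and is known from translocations in leukaemia, and lies at chr8:23349545-23433275 on the plus strand with 18 exons (ENSMUSG00000031540.16). Its promoter reached 47.6 at 129 bp upstream, above 74.2% of promoters. The gene held 36 intervals, and 88.9% of 1543 genes of like length held fewer (median 14). Intron 3, which spans 40.3 kb or 48.1% of the gene, held 22 of them. Of the 8 intervals of 5 or more outside the promoter, 7 lay in this intron, at 6.68, 8.77, 7.14, 14.9, 23.2, 5.50 and 11.3 in order from 7.80 kb to 38.5 kb. The highest, chr8:23379764-23383793, was 4030 bp wide with its summit at 31.6 kb. The other lay in intron 16 at 8.31. The summit sequence of the 23.2 interval is printed as the strongest within the gene, and it held none of the searched letters.
Kat6a intron 3 at 31.6 kb, chr8:23381060-23381260, plus strand: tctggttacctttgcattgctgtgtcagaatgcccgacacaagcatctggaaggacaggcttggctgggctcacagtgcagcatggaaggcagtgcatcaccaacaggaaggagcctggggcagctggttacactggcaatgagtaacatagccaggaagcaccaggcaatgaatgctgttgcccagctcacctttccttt

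Kat6b encodes MORF, the paralog of MOZ, and lies at chr14:21531502-21722546 on the plus strand with 17 exons in the canonical transcript (ENSMUSG00000021767.22). Its promoter was the strongest of the 9 at 95.1 (-log10 q 2289), above 98.9% of all promoters and 99.9% of all intervals. A second summit 113 bp upstream reached 94.9, and the first lies 197 bp upstream. The interval, chr14:21548455-21553608, contained the canonical start and the alternative starts 1122, 1636 and 1656 bp upstream. A further annotated start 19419 bp upstream, where the gene record begins, and 1 at 16022 bp downstream had no interval within 100 bp. The gene, the longest member, held 38 intervals, and 64.5% of 688 genes of like length held fewer (median 25). Beside a like-length median of 5, 12 Kat6b intervals outside the promoter reached 5, the most of any member. They were of moderate height, from 5.11 to 9.49. Intron 2, which spans 92.3 kb, held 27 intervals with 7 of these, between 5.11 and 8.51, and the highest, chr14:21712339-21713113, lay in intron 15 at 162 kb. The promoter was thus 10.0 times as high as the strongest other Kat6b interval, while at Kat6a this ratio was 2.05. Per 10 kb, Kat6a held 4.15 intervals and Kat6b 1.96.

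Kat7 encodes HBO1, which acetylates histone H3 and H4 and takes part in replication licensing, and lies at chr11:95165085-95201072 on the minus strand with 15 exons (ENSMUSG00000038909.18). Its promoter interval was the second highest of the set at 57.5, above 84.0% of promoters. The highest summit lay 523 bp downstream of the start, in intron 1, while a summit 60 bp upstream reached 46.0. Another coding start of Kat7 lies 644 bp downstream, also inside the promoter interval. Of 13 other intervals 1 reached 5, chr11:95173642-95174315 in intron 9 at 5.56, and its window held the HNF1 letters. The 3′ UTR held an interval at 3.80.

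Kat8 encodes MOF, the enzyme that acetylates histone H4 in the MSL and NSL complexes, and lies at chr7:127511661-127525009 on the plus strand with 11 exons (ENSMUSG00000030801.12). Its promoter reached 32.1 at 23 bp upstream, above 53.3% of promoters, with 27.0 at 158 bp downstream. This was the only member whose promoter was not its strongest interval. A block of 18631 bp with 49 summits, chr7:127517502-127536132, reached 39.2 in intron 10 of Kat8, 310 bp before the Kat8 end. That summit lies 189 bp past the 3′ end of Prss8, which is transcribed from the other strand and encodes prostasin, a protease of tubule epithelium that activates the epithelial sodium channel. Within the block a summit 9 bp from the Prss8 start reached 27.0, and another 5402 bp upstream of that start reached 34.7. The share of the block that belongs to either gene was not tested. The other Kat8 intervals ran from 1.77 to 4.65.

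Across the set, the promoter was the strongest interval in 8 of 9 genes, against 74.4% of the 14919 protein-coding genes that have both a promoter interval and another one. At Kat2b the margin was small (41.5 against 41.0). An interval of 5 or more outside the promoter was present for 8 of 9, all but Ep300, against 50.7% of all genes. This share rises with gene length, from 27.0% of genes of the length of Kat5 to 89.8% of those of the length of Kat6b. For Kat2a and Kat5 the summit lies past the gene, which leaves 6 members with such a summit inside their own window.

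Of the 170 intervals outside the promoters, 142 had their highest summit in an intron, 14 in an exon (11 coding, 3 in a 3′ UTR), 12 before the canonical start and 2 past the gene end. Intron 1 alone held 36. They were narrow and weak beside the promoters, with a median fold enrichment of 2.36 and a median width of 418 bp, near the medians of all intervals in the list (2.55 and 434 bp), and 51.2% had a single summit. Crebbp, Kat2b, Kat6a and Kat6b, the 4 longest members, held 143 of the 170 and 32 of the 36 that reached 5. Over the whole list, 75.8% of intervals lay below a fold enrichment of 5.11. The lowest fold enrichment in the whole list, 1.70 (-log10 q 1.37), was the value of 16 of the members' intervals. Of all intervals in the list, 6.61% lay below 1.77, the next value among the members.

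**Figure D4:**
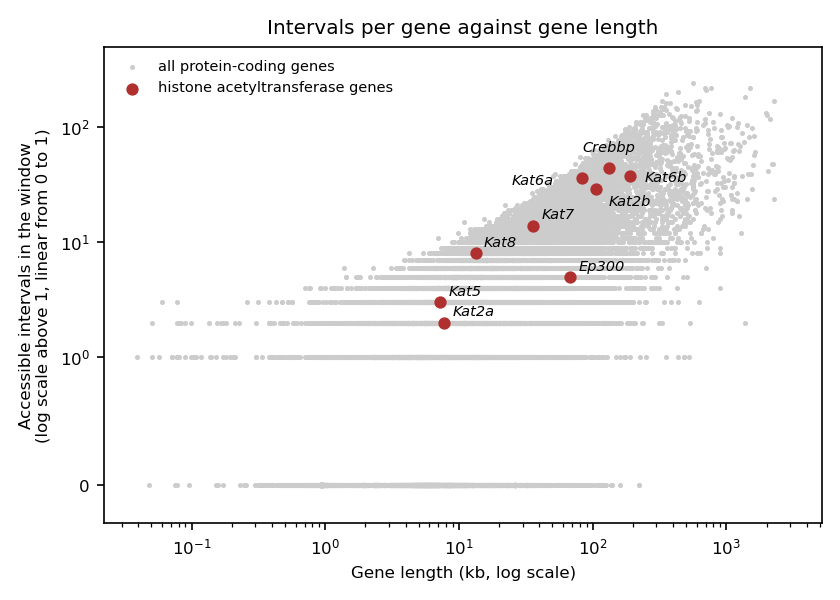
Points are protein-coding genes, by gene length (x axis, kb, log scale) and number of accessible intervals in the window (y axis, log scale above 1, linear from 0 to 1), with the 9 histone acetyltransferase genes in red and named. Crebbp (44) and Ep300 (5) lie far apart for their lengths, and Kat6a (36) lies above most genes of its length.

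Promoter widths of the 9 ranged from 2937 bp at Kat8 to 8518 bp at Kat2a, with a median of 4224 bp against 2953 bp over all promoters. The highest summit lay upstream of the canonical start in 5 genes and downstream in 4, against 55.0% downstream over all promoters. Within 250 bases of the start, the G and C share ran from 58.3% at Kat7 to 77.8% at Kat6a and the ratio of observed to expected CpG from 0.584 at Kat5 to 1.10 at Crebbp, while the medians over all genes were 57.1% and 0.601. By these values 8 of the 9 starts exceeded the CpG median of all genes, Kat5 being the exception. Besides Hspb9 at Kat2a, annotated genes outside the protein-coding class start inside several of these promoter intervals, among them Gm55386 and 1110025M09Rik at Ep300, Gm59325 at Kat5, Gm46036 and Gm63818 at Kat6a, Gm62641 at Kat6b, Gm11520 at Kat7 and Gm72944 at Kat8, and their part in the values was not tested. The order of the promoters by G and C share was not their order by fold enrichment, since Kat6b had 65.1% and Kat7 58.3%.

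Motif letters were searched on both strands without mismatch within 100 bases of each promoter summit and compared with 14916 promoter windows. The GC box was found in 6 of 9 (Ep300, Kat2b, Kat5, Kat6a, Kat7 and Kat8), against 56.8% of promoters. The CCAAT box, searched only as CCAATC, was found in Ep300, Kat6b and Kat7, 3 of 9 against 16.2%. An ETS site (CCGGAAG) was found in 2, at 156 and 181 bp downstream of the start in Kat5 and beside the start in Kat8, against 12.8%. Kat5 also held the YY1 letters (AANATGGCG) at 205 bp downstream, against 3.26%. The E-box was found in Kat6a alone (6.94%) and the HNF1 letters in Kat7 alone (2.57%). None of the 9 held NRF1 (6.89%), the CTCF core (AGGGGGC, 12.4%), AP-1 (TGANTCA, 4.63%), CRE (TGACGTCA, 2.49%), HNF4 (CAAAGTCCA, 0.422%) or ERR letters (TCAAGGTCA, 0.181%). Crebbp and Kat2a held none of the 12. The GC boxes of Kat6a at 99 and 95 bp upstream overlap each other, and Kat5 has a second such overlapping pair. With 9 windows these shares are counts of letters and say nothing of binding.

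The same letters were searched in the members' intervals of fold enrichment 5 or more that had no canonical start of a coding gene in them or within 1 kb of them. Of these 33 windows 1, at 17.1 kb in Kat2b, lies beside the start of the shorter Kat2b coding transcript. AP-1 letters were found in 9 of 33 (27.3%), spread over Crebbp, Kat2b, Kat6a and Kat6b, against 19.8% of 55557 such windows genome-wide. The HNF1 letters were found in 2, in Kat6b and Kat7, against 12.4%. The CCAAT box was found in 1, in Kat2b, against 6.30%, the E-box in 1, in Kat6b, against 4.44%, and the GC box in 0, against 8.34%. Base composition differed in the same windows. The G and C share was 41.3% to 57.2% in the members' windows away from canonical starts and 57.2% to 80.6% in their promoter windows, and the genome-wide medians were 50.2% and 64.7%. The part of base composition in the letter counts was not tested.

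Partners of 7 of these enzymes were listed by complex. All 20 SAGA and ATAC subunits had a promoter interval, a share to be read beside the 75.8% of all protein-coding genes, with a median of 46.0 and values from 12.7 at Supt7l to 93.7 at Eny2, a subunit of the deubiquitinase module. So did 16 of 16 TIP60 complex subunits (median 44.0, from 20.2 at Dmap1 to 95.6 at Ing3, a reader of methylated histone H3). All 9 subunits of the MOZ, MORF and HBO1 complexes did (median 44.7), from 24.6 at Brd1 to 103 at Brpf1, the scaffold that binds MOZ and MORF. The 11 MSL and NSL subunits had a median of 35.4, from 22.1 at Msl1 to 63.4 at Kansl2. The promoters of Kat2a, Kat2b, Kat5, Kat6a, Kat6b, Kat7 and Kat8 each lay within the range of their own complex list, and no list of partners was made for Ep300 and Crebbp. Trrap, Meaf6 and Wdr5 belong to more than 1 of these lists.

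Other acetyltransferases, 15 of 15 with a promoter interval against 75.8% of all protein-coding genes, had a median of 44.7, from 18.9 at Elp3 to 84.0 at Ncoa2. All 11 deacetylases and all 7 sirtuins described next had a promoter interval too. Of the enzymes that remove acetyl groups, the 11 zinc-dependent histone deacetylases had a median of 40.8, from 7.27 at Hdac9 to 74.0 at Hdac4, and took 197 intervals in all. The 7 sirtuins had a median of 32.1, from 16.1 at Sirt7 to 54.5 at Sirt2, and took 53 intervals. The number of genes above the median of all promoters was 7 of 9 for the acetyltransferase members, 7 of 11 for the deacetylases and 4 of 7 for the sirtuins. No difference between these lists was tested.

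**Figure D5:**
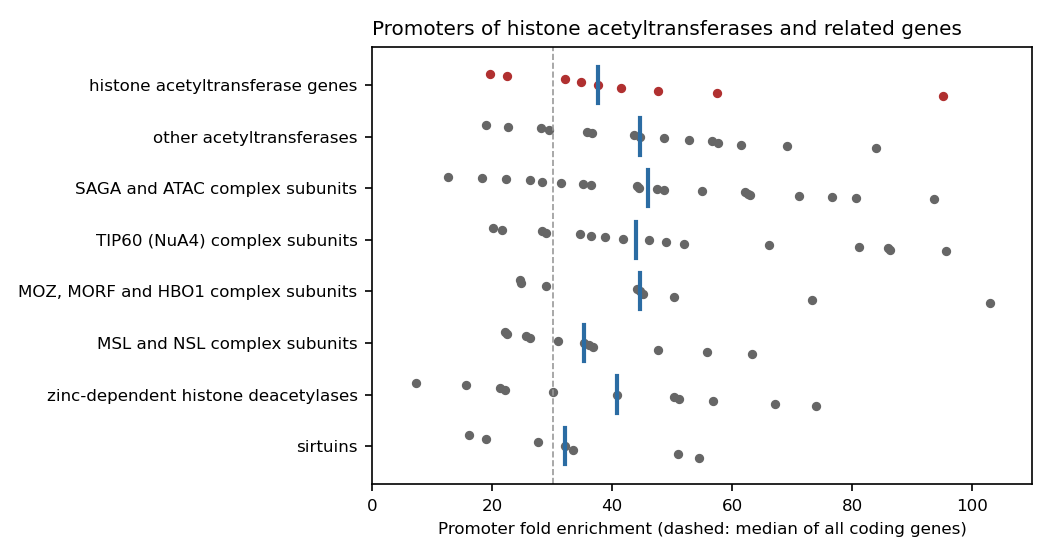
Points give the promoter fold enrichment (x axis, linear) of each gene of a list (rows), with the blue bar at the list median and the dashed line at the median of all coding-gene promoters (30.1). The 9 histone acetyltransferase genes, in red, span 19.7 to 95.1, and the lists of their partners cover much the same range.

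The tissue label was checked against marker genes. Promoters of all 6 proximal tubule markers were in the list, a share to be read beside the 75.8% of all protein-coding genes. They ran from 5.30 at Slc22a6 to 35.1 at Aqp1, with Lrp2 at 33.1. Presence alone did not separate tissues, since 4 of 6 markers of other organs also had a promoter interval. Markers of the thick ascending limb and distal tubule ran from 8.38 to 20.8 and those of the collecting duct from 3.54 to 28.4. Podocyte (3.14 to 4.52), endothelial (2.03 to 4.12), fibroblast and pericyte (2.62 to 5.63) and immune markers (1.90 to 2.29, with no promoter interval at Cd3e) were at 5.63 or below. Markers of other organs were at 3.40 or below, and Myh6 and Sftpc had no promoter interval. These are promoter values only. Outside the promoter, 4 of 6 markers of other organs and all 3 immune markers had an interval of 5 or more, against 50.7% of all genes. Among the proximal tubule markers 2 of 6 had one. In such a bulk pool, accessibility in few cells and weak accessibility in many cannot be told apart. The values at the acetyltransferase genes are averages over all these cell types.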

How the data were processed

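Kidney ATAC-seq libraries were grouped by genotype from their labels, 3 WT and 3 Acly cKO. After fastp trimming, the authors mapped reads to mm39 (Bowtie2 2.3.4.3), dropped duplicates and multiply mapped reads, and made the peak call with MACS3 3.0.0, filtered with bedtools 2.29.1. Their deposited list is 1 pooled call, and whether WT libraries deposited elsewhere entered it is not given in the sources used here. It holds, per summit, the fold enrichment over background (a ratio), the -log10 q, a score derived from it by the authors' caller, and the summit's offset. The deposited summits before filtering hold the same -log10 q for all 749750 summits, and the filter removed 0 summits at these genes. The depth per library is unknown.

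Rows were merged into intervals by position, each placed (in an intron, for example) and valued by its highest summit by q. Promoter means within 1 kb of the start of the canonical transcript of GENCODE M39, and like length means 0.8 to 1.25 times the gene length. Members and lists were chosen with earlier results of these data known. Named are all 9 members with their promoter interval and those of 5 or more elsewhere (or the strongest), neighbours with a start in a member interval, and the extremes of each list, of which 1, with a promoter interval in 3 of its 4 genes, is not reported here. The search of windows away from promoters, the internal starts and the intron counts were added after the values were seen. On simulated data the functions placed 200 of 200 windows, 701 of 701 intervals and 1200 of 1200 planted motifs rightly. Python 3.11.15, numpy 2.4.6, pandas 2.3.3, pysam 0.24.0, samtools 1.23.1 and matplotlib 3.10.9 were used. Alternatives varied the window, the threshold, the summit and the promoter definition.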

Additional observations from a re-analysis of the deposited data

How the results depend on the processing

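The number of intervals at the 9 genes, 179, fell to 90 at a q under 1e-05 and to 45 at a fold enrichment of at least 5, and rose to 538 when summits were counted. It was 149 at a q under 0.01, 168 in the gene body alone, 206 with 10 kb on either side and 175 where the highest summit had to lie inside the window. Over the whole list, 75.8% of intervals lay below a fold enrichment of 5.11 and 47.3% below a -log10 q of 5.48. Of 63 counts for single genes under these alternatives, 27 moved by over 1.5 times. All 9 genes kept a promoter interval under each alternative but 1, the highest summit within 500 bp of the start, which left 8 because the Kat7 summit lies 523 bp away. Taking the highest summit by fold enrichment, or the interval whose highest summit lies nearest the start, left the promoter fold enrichment of each gene as given. The value of the single summit nearest the start was not among the alternatives, and it is lower for some genes. At Crebbp that summit, 104 bp downstream, was at 18.3 against 37.6, and at Kat7, 60 bp upstream, at 46.0 against 57.5. No paired analysis was possible because the pooled list has no column per library. For the same reason no replicate could be left out. The depth behind the intervals is unknown, and 16 of the 179 sit at the lowest value of the list. Of all intervals in the list, 6.61% lay below a fold enrichment of 1.77.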
